A study of Homo sapiens with 8 samples.

Results

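The genes described here encode 60 ribosome biogenesis factors, the proteins that make, modify and assemble ribosomal RNA and are not part of the finished ribosome. They are the rows of the deposited table whose name is 1 of 60 listed symbols and whose mean over the 8 libraries is at least 10. All 60 symbols were found and all 60 passed that minimum, out of 60240 genes in the table and 17534 genes with such a mean. By role, 25 act on the small (40S) ribosomal subunit, 19 on the large (60S) subunit, 7 are proteins of the small nucleolar ribonucleoproteins (snoRNPs), 5 belong to RNA polymerase I or its regulation, and 4 are other abundant nucleolar proteins.

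Ribosomes are made in the nucleolus. RNA polymerase I transcribes a long precursor of ribosomal RNA, box C/D and box H/ACA snoRNPs guide its methylation and pseudouridylation, and sets of assembly factors fold and cut the parts that become the small and the large subunit. Genes of this pathway are known targets of the transcription factor MYC, which is amplified in HL-60, an established human line of promyelocytic leukaemia cells.

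RNA was taken at 72 h from HL-60 cells, labelled wild type, in 4 groups of 2 libraries: the solvent DMSO, decitabine, RG3039, and both drugs together (the combination). Decitabine, a cytidine analogue that traps DNA methyltransferases, was given at 100 nM once a day, on days 0 to 2. RG3039, an inhibitor of the scavenger decapping enzyme DcpS, was given at 2 µM on day 0. The wells were duplicates of 1 cell line, so the p-values below measure the spread between wells.

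Each value is a normalised number of reads near the 3′ end of a gene's transcripts, made from polyadenylated RNA, and values were compared between libraries, not between genes. The estimated depth was 20700000 to 40900000 reads per library, and the members' mean values ran from 243 (UTP15) to 65487 (NPM1). All 10 myeloid markers examined were above 0, with summed values of 203155 to 243890 in DMSO, 211915 to 252043 after decitabine, 165970 to 174514 after RG3039 and 150782 to 165124 after both drugs. MPO was the largest single part of that sum, at 130999 and 165580 in DMSO and 69218 and 74639 after both drugs. The markers did not go 1 way: LYZ was at 41576 and 45369 against 58944 and 61979, CEBPE at 2368 and 2700 against 6514 and 7476, and CD38 at 283 and 223 against 486 and 564. The B cell marker MS4A1 and the globin HBB were at 0 in all 8 libraries. The other 5 of 6 lymphoid markers summed to 147 to 165 in DMSO, 284 to 352 after decitabine, 59.1 to 146 after RG3039 and 280 to 405 after both drugs. The other 3 of 4 erythroid markers summed to 60.9 to 190, 228 to 234, 149 to 270 and 87.3 to 202 in the same order. The sum of 7 stromal and epithelial markers, mostly PECAM1 and KRT18, was 698 to 977 in DMSO, 913 to 1252 after decitabine, 1981 to 2140 after RG3039 and 4085 to 4197 after both drugs. PECAM1 alone was at 608 and 582 in DMSO and 3085 and 3460 after both drugs. KRT18 was at 297 and 67.9 against 919 and 653, and COL1A1 at 65.8 and 40.3 against 51.0 and 56.0. COL1A2, PDGFRB and VWF were at 12.1 or below in every library, so the sum does not describe the listed markers as a set. The part of these marker levels in the results below was not tested. In bulk RNA, fewer cells of a type and less RNA per cell cannot be told apart.

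Most ribosome biogenesis factor genes were lowest in cells that received both drugs. With limma on log2(value + 1), 48 of the 60 members were lower in the combination than in DMSO at a Benjamini-Hochberg adjusted p under 0.05 over all 17534 genes (called lower), none was called higher, and 12 did not pass. Over all genes tested, 12.7% were called lower. The median log2 fold change of the 60 members was -1.03, against 0.04 for all genes. The 2 combination libraries lay below both DMSO libraries in 56 of 60 members, against 30.6% of all genes. Both combination libraries were the lowest of all 8 in 50 members (12.2% of all genes), and both DMSO libraries the highest of all 8 in 41 (11.9%). Each drug alone gave smaller differences: the members' median log2 fold change was -0.44 after decitabine and -0.41 after RG3039, where the medians of all genes were 0.01 and -0.00. These 3 comparisons use the same 2 DMSO libraries. The second DMSO library was above the first in 44 of 60 members, against 52.4% of all genes. Of the 48 calls in the combination, 36 held whichever of the 8 libraries was left out.

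**Figure D1:**
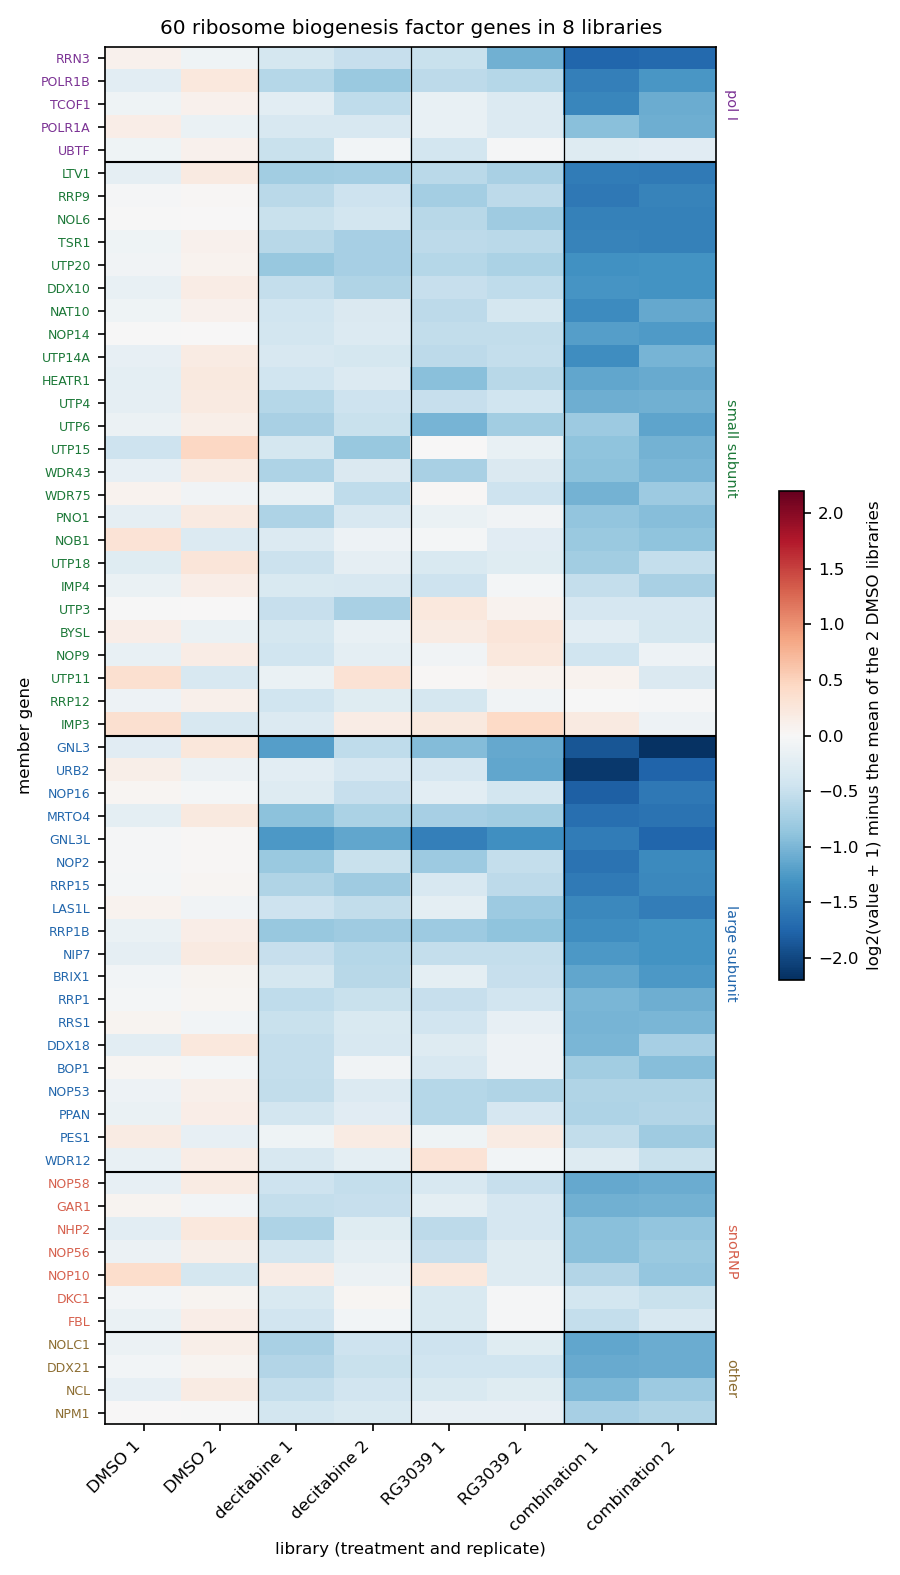
Each row is 1 of the 60 genes, sorted by role and then by the change with the combination, and each column is 1 of the 8 libraries. Colour gives log2(value + 1) minus the mean of the 2 DMSO libraries, with blue for lower values; the side label "other" marks the 4 other nucleolar proteins. The 2 combination columns are the darkest in most rows, and UBTF, RRP12, IMP3 and UTP11 stay pale.

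**Figure D2:**
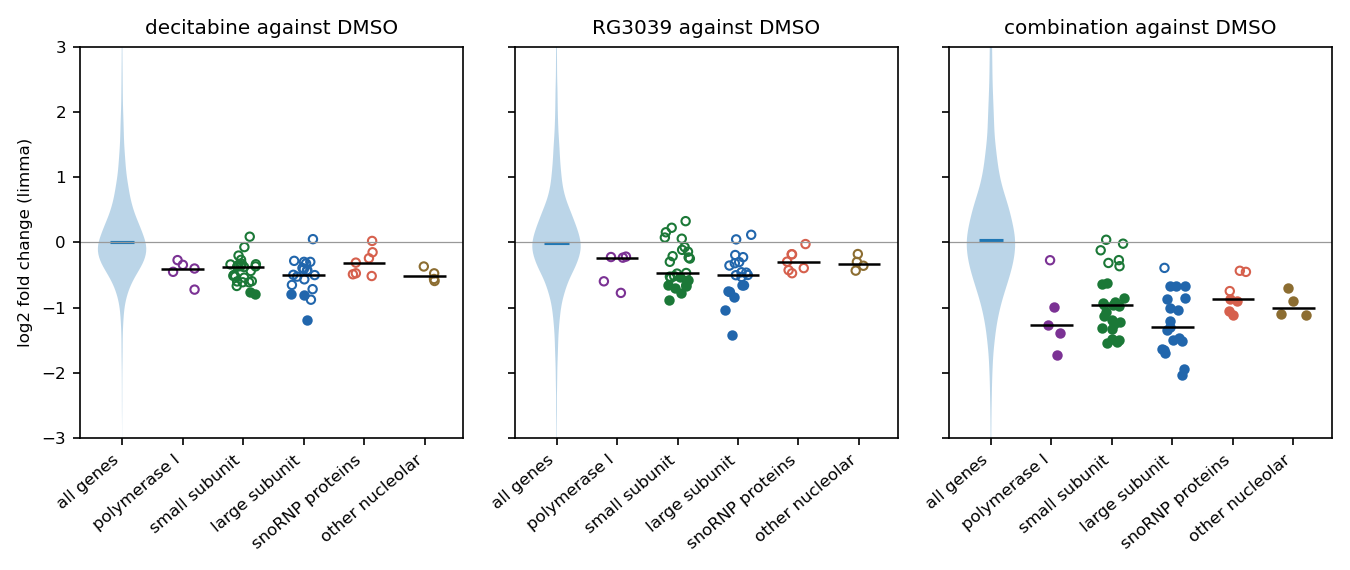
The vertical axis is the limma log2 fold change against DMSO, for each single drug and the combination. The pale shape is the distribution of all 17534 genes, of which some lie beyond the axis, with its median as a blue line. Points are members by role, filled where called and open where not, with black lines at the role medians. In the combination, 48 of 60 points are filled, with role medians from -0.86 to -1.29.

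Promoter sequence was examined because most of the members were lower together. RefSeq windows (GRCh38.p14, 250 bases before to 50 after the start) were matched for 51 of the 60 members. The others, named only, are RRP12, RRS1, DDX18, TCOF1, RRP1B, BOP1, NOLC1, NOP58 and URB2. The E-box CACGTG, a palindrome that MYC with its partner MAX and several related factors can bind, was found in 21 of 51 members (41.2%), against 12.4% of the 11081 tested genes with a window and 8.77% of all 27305 genes with one. In 19 members an E-box had 12 bases on each side within the window, 22 E-boxes in all, of which 13 had their middle after the start and 9 before it, between positions -200 and 34. The first 10 windows below belong to the members with the smallest p in the combination among these, and the last 3 to members that were not called. Each is written 5′ to 3′ on the strand of the gene, with the E-box in capitals and coordinates on GRCh38.p14.
NOP14 (chr4:2963374-2963403, minus strand): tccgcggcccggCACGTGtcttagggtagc
MRTO4 (chr1:19251807-19251836, plus strand): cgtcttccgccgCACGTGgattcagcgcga
LTV1 (chr6:143843354-143843383, plus strand): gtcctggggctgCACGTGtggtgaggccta
DDX21 (chr10:68956604-68956633, plus strand): ggccgggtgtccCACGTGgtccccggcgac
UTP20 (chr12:101280083-101280112, plus strand): cttttttccgtcCACGTGacccactcaggc
NOL6 (chr9:33473894-33473923, minus strand): ggcatttccgccCACGTGggaagctatgag
GNL3 (chr3:52686026-52686055, plus strand): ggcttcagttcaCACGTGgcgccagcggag
RRP9 (chr3:51941892-51941921, minus strand): gggttcagctgcCACGTGagttctgcggcc
NAT10 (chr11:34105602-34105631, plus strand): aatgcgcttgcgCACGTGctgtctaccagt
GAR1 (chr4:109815781-109815810, plus strand): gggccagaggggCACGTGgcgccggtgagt
NOP10 (chr15:34343130-34343159, minus strand): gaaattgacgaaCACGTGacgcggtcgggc
FBL (chr19:39846356-39846385, minus strand): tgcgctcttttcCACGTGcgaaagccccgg
BYSL (chr6:41921515-41921544, plus strand): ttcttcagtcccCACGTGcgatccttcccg
In the combination, 18 of the 21 members with an E-box were called lower, with a median log2 fold change of -1.10, and 22 of the 30 without it, with a median of -0.94. The E-box was not the motif with the widest gap between these medians. With the ETS-type motif CCGGAAG 16 of 19 were called lower, with a median of -1.29, and without it 24 of 32, with a median of -0.92. With CCAAT 18 of 22 were called lower, with a median of -0.94, and without it 22 of 29, with a median of -1.04. Other motifs, searched on both strands like the E-box, were CACGCG in 18 of 51 members (35.3%, against 21.6% of tested genes), CCGGAAG in 19 (37.3%, against 21.6%), the NRF1 palindrome in 4 (7.84%, against 2.55%) and CCAAT in 22 (43.1%, against 43.2%). No motif contains another, but a window can hold several and neighbouring matches can share bases. A match in the sequence is a description and does not show that a factor is bound.

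Of the polymerase I genes, 4 of 5 were called lower in the combination, with a median log2 fold change of -1.26 over the 5. RRN3 encodes TIF-IA, which brings polymerase I to the ribosomal DNA promoter (chr16:15060022-15094317, minus strand; GENCODE 29, GRCh38, as for all genes below). Its values were 1088 and 955 in DMSO, 778 and 713 after decitabine, 727 and 487 after RG3039, and 303 and 313 after both drugs. The combination libraries lay below all others, a log2 fold change of -1.73 ± 0.22 (SE, adjusted p = 0.000698, limma). Annotated RRN3 pseudogenes have a summed mean of 334, so reads shared with them make its level uncertain.

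POLR1B, the second largest polymerase I subunit (chr2:112541915-112577150, plus strand), had 1877 and 2611 in DMSO, 1428 and 1256 after decitabine, 1492 and 1435 after RG3039 and 782 and 907 after both drugs (-1.39 ± 0.19, adjusted p = 0.000963, limma). POLR1A, the largest subunit (chr2:86020216-86106155, minus strand), had 1487 and 1227 in DMSO and 711 and 642 after both drugs (-1.0 ± 0.17, adjusted p = 0.00279). TCOF1, the nucleolar protein treacle (chr5:150357629-150400308, plus strand), had 3535 and 4006 in DMSO, 3186 and 2549 after decitabine, 3362 and 3045 after RG3039 and 1399 and 1755 after both drugs (-1.26 ± 0.17, adjusted p = 0.000997). All 3 were below every other library in both combination libraries. UBTF, the HMG-box factor that keeps ribosomal DNA open, had 5563 and 6393 in DMSO and 4873 and 4993 after both drugs, and the difference did not pass (-0.27 ± 0.18, adjusted p = 0.326). None of the 5 genes passed with either single drug, with medians of -0.40 for decitabine and -0.23 for RG3039.

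Of the small subunit factors, 18 of 25 were called lower in the combination, with a median log2 fold change of -0.96. The smallest p belonged to NOP14, a component of the early small subunit precursor (chr4:2937933-2963385, minus strand), whose E-box window is printed above. Its values were 7100 and 7132 in DMSO, 5347 and 5803 after decitabine, 4895 and 4918 after RG3039, and 3073 and 2998 after both drugs. The 4 groups did not overlap, and the log2 fold change was -1.23 ± 0.12 in the combination (adjusted p = 0.000208, limma).

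LTV1, which accompanies the small subunit out of the nucleus (chr6:143843344-143863812, plus strand), had 3481 and 4565 in DMSO, 2357 and 2366 after decitabine, 2636 and 2436 after RG3039, and 1368 and 1360 after both drugs (-1.55 ± 0.16, adjusted p = 0.000239). TSR1, a GTPase-like factor of the late 40S precursor (chr17:2322503-2337507, minus strand), had 1856 and 2112 in DMSO, 1304 and 1190 after decitabine, 1324 and 1320 after RG3039, and 716 and 704 after both drugs (-1.48 ± 0.15, adjusted p = 0.00024). For both genes the single drug libraries lay between DMSO and the combination without overlap. UTP20 (chr12:101280109-101386616, plus strand), a large scaffold of the small subunit processome, had 2174 and 2434 in DMSO, 1289 and 1379 after decitabine, 1482 and 1412 after RG3039, and 909 and 927 after both drugs (-1.32 ± 0.15, adjusted p = 0.000352). NOL6, another processome scaffold, had 944 and 961 in DMSO and 338 in each combination library (-1.49 ± 0.17, adjusted p = 0.000425). NAT10, which acetylates cytidines in 18S ribosomal RNA, had 6055 and 6835 in DMSO and 2459 and 2958 after both drugs (-1.25 ± 0.15, adjusted p = 0.000505).

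The subcomplexes of the processome, the large particle that folds the precursor of 18S ribosomal RNA, were each lower in most members. Of the UTP-A complex, which binds first, 4 of 5 were called lower: UTP4 (-1.07), HEATR1 (-1.12), WDR43 (-0.96) and WDR75 (-0.92), while UTP15 did not pass (-0.96 ± 0.33, adjusted p = 0.0599, limma). Its 2 DMSO libraries were at 222 and 421. Both listed UTP-B members fell, UTP6 by 0.98 and UTP18 by 0.64 on the log2 scale. Of the 3 proteins listed for the U3 snoRNP, which pairs with the precursor, RRP9 (-1.53) and IMP4 (-0.62) were called lower. IMP3 did not pass, with 6559 and 4046 in DMSO against 5878 and 4778 after both drugs (0.04 ± 0.24, adjusted p = 0.927).

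Of 6 factors of the late 40S precursor, 4 were called lower: LTV1, TSR1, PNO1 (-0.91) and the endonuclease NOB1, which makes the final cut of 18S ribosomal RNA (-0.85 ± 0.20, adjusted p = 0.0135, limma). BYSL (-0.32) and RRP12 did not pass. RRP12, an export factor, had 1085 and 1268 in DMSO, 866 and 981 after decitabine, 893 and 1118 after RG3039, and 1159 and 1155 after both drugs (-0.02 ± 0.18, adjusted p = 0.956), so its combination libraries lay between the DMSO libraries. The helicase DDX10 (-1.31) and UTP14A (-1.19) were also called lower, and NOP9, UTP3 and UTP11 were not (-0.27, -0.37 and -0.12).

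Of the large subunit factors, 18 of 19 were called lower in the combination, with a median log2 fold change of -1.29. The smallest p of all 60 members belonged to GNL3L, a nucleolar GTPase (chrX:54530211-54561071, plus strand). It had 10295 and 10701 in DMSO, 4377 and 4780 after decitabine, 3721 and 4107 after RG3039, and 3624 and 3128 after both drugs. Each treatment stood far below DMSO and close to the others, with log2 fold changes of -1.20 ± 0.14 for decitabine (adjusted p = 0.00271, limma), -1.42 ± 0.14 for RG3039 (adjusted p = 0.000743) and -1.64 ± 0.14 for the combination (adjusted p = 8.98e-05).

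GNL3, or nucleostemin, the related GTPase of stem and tumour cells (chr3:52681156-52694492, plus strand), had 8563 and 12173 in DMSO, 4427 and 6955 after decitabine, 5277 and 4667 after RG3039, and 2761 and 2258 after both drugs. It was 4.09-fold lower in the combination, the largest change of a member in this comparison (-2.03 ± 0.24, adjusted p = 0.000425, limma), and its 2 DMSO libraries differed more than those of GNL3L. NOP16, a nucleolar protein of early 60S assembly (chr5:176383938-176388975, minus strand), had another pattern. It had 2372 and 2218 in DMSO, 1888 and 1616 after decitabine and 1947 and 1736 after RG3039, but 657 and 767 after both drugs (-1.69 ± 0.16, adjusted p = 0.000179). Neither single drug passed for it (-0.39 after decitabine and -0.32 after RG3039). That alone was common among the members: 36 of the 60 were called lower against DMSO with the combination and with neither single drug. Calls were also most frequent with the combination over all genes, at 12.7% lower against 0.405% with decitabine and 3.59% with RG3039. The share of all genes called lower with the combination only was not counted.

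MRTO4, which holds the place of the stalk protein P0 in the 60S precursor (chr1:19251539-19260128, plus strand), had 4504 and 6128 in DMSO, 2822 and 3260 after decitabine, 3148 and 3109 after RG3039, and 1654 and 1696 after both drugs (-1.65 ± 0.17, adjusted p = 0.000232, limma). URB2 (chr1:229626234-229660199, plus strand) had 563 and 475 in DMSO and 119 and 152 after both drugs, with a larger error (-1.94 ± 0.29, adjusted p = 0.00148). RRP1B (chr21:43659548-43696079, plus strand) had 3948 and 4780 in DMSO, 2431 and 2541 after decitabine, 2505 and 2358 after RG3039, and 1675 and 1740 after both drugs (-1.35 ± 0.15, adjusted p = 0.000299). In each of these genes the combination libraries were the lowest.

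The other large subunit factors called lower had log2 fold changes of -1.51 (NOP2, which methylates 28S ribosomal RNA), -1.49 (RRP15), -1.47 (LAS1L, the endonuclease of the second internal spacer), -1.29 (NIP7), -1.20 (BRIX1), -1.04 (RRP1), -1.01 (RRS1, which helps to bring in the 5S particle), -0.87 (the helicase DDX18), -0.67 (NOP53) and -0.67 (PPAN). Of the PeBoW complex, needed for processing of the large subunit RNA, 2 of 3 genes were called lower. Differences among the 3 genes were not tested. BOP1 had 2162 and 2044 in DMSO and 1240 and 1100 after both drugs (-0.85 ± 0.18, adjusted p = 0.00942, limma). PES1 had 1732 and 1335 in DMSO and 1048 and 880 after both drugs (-0.66 ± 0.20, adjusted p = 0.0365). WDR12 had 2681 and 3380 in DMSO and 2465 and 2137 after both drugs and did not pass (-0.39 ± 0.18, adjusted p = 0.15).

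Of the snoRNP proteins, 4 of 7 were called lower in the combination, with a median log2 fold change of -0.86. Of the box C/D proteins, NOP56 had 14227 and 16931 in DMSO, 11695 and 13394 after decitabine, 10905 and 12785 after RG3039, and 8235 and 8843 after both drugs (-0.86 ± 0.15, adjusted p = 0.00296, limma). NOP58 had 7202 and 9349 in DMSO and 3739 and 3850 after both drugs (-1.11 ± 0.15, adjusted p = 0.000979). FBL, the methyltransferase fibrillarin, had 26934 and 32848 in DMSO and 20749 and 23313 after both drugs, and did not pass (-0.44 ± 0.18, adjusted p = 0.106). Of the box H/ACA proteins, GAR1 (-1.05) and NHP2 (-0.89) were called lower. NOP10 (-0.75 ± 0.26, adjusted p = 0.0681) and the pseudouridine synthase DKC1 (14347 and 15433 in DMSO, 11194 and 10565 after both drugs, -0.45 ± 0.16, adjusted p = 0.0725) did not pass.

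All 4 other nucleolar proteins were called lower in the combination, with a median log2 fold change of -1.0. NPM1, or nucleophosmin (chr5:171387116-171411137, plus strand), had 80065 and 79846 in DMSO, 60478 and 63316 after decitabine, 70525 and 70757 after RG3039, and 48169 and 50737 after both drugs (-0.69 ± 0.12, adjusted p = 0.00308, limma). NCL, or nucleolin (chr2:231453531-231483641, minus strand), had 65407 and 83437 in DMSO, 51470 and 54880 after decitabine, 58329 and 61768 after RG3039, and 37226 and 42401 after both drugs (-0.89 ± 0.15, adjusted p = 0.00272). The helicase DDX21 (chr10:68956128-68985073, plus strand) had 22272 and 24094 in DMSO, 14907 and 16521 after decitabine, 17122 and 17192 after RG3039, and 10743 and 10809 after both drugs (-1.10 ± 0.12, adjusted p = 0.000328). NOLC1, a chaperone of snoRNPs, had a log2 fold change of -1.11 (adjusted p = 0.000995). The groups of these 4 genes did not overlap between DMSO and any treatment. NPM1 has 45 annotated pseudogenes with a summed mean of 139, small beside its own value.

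**Figure D3:**
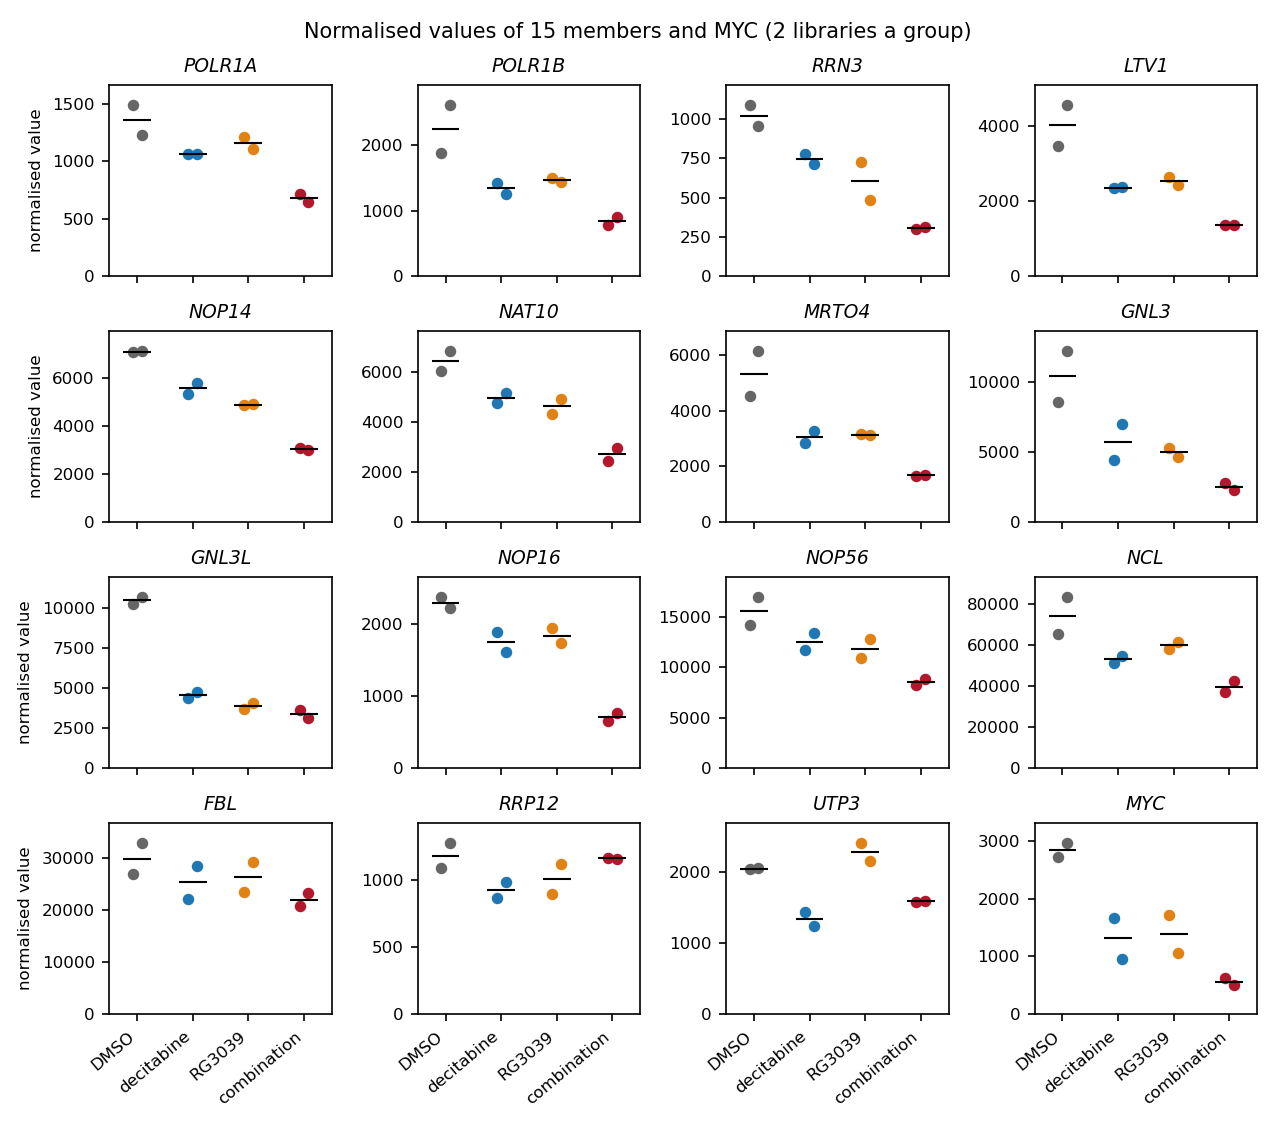
Normalised value (vertical axis, from 0) of 15 members and MYC in the 4 groups; each point is 1 library and each black line the mean of 2. In GNL3L the 3 treatments lie together far below DMSO, in NOP16 the combination stands alone, in LTV1 and MRTO4 the single drugs lie midway, and in FBL and RRP12 the DMSO libraries overlap with those of a single drug.

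With decitabine alone, 5 of 60 members were called lower (0.405% of all genes were), and none was called higher. They were 3 large subunit factors, GNL3L, RRP1B (-0.81 ± 0.15, adjusted p = 0.0262, limma) and MRTO4 (-0.79 ± 0.17, adjusted p = 0.0481), and 2 small subunit factors, UTP20 (-0.79 ± 0.15, adjusted p = 0.031) and LTV1 (-0.76 ± 0.16, adjusted p = 0.0471). No polymerase I, snoRNP or other nucleolar gene passed, and the next smallest adjusted p were those of RRP15 and DDX21 (both 0.0508). In 57 of 60 members the log2 fold change was below 0 (49.1% of all genes), and in 50 both decitabine libraries lay below both DMSO libraries (23.1% of all genes). The count of 5 changed with the library left out: it was 1 without the second DMSO, either decitabine, the second RG3039 or either combination library, 2 without the first RG3039 library, and 7 without the first DMSO library. RG3039 and combination libraries enter this comparison only through the common spread of the fit, not through its fold changes. GNL3L was the call that held whichever library was left out.

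With RG3039 alone, 12 of 60 members were called lower (3.59% of all genes were), and none was called higher. Of these, 7 were small subunit factors: UTP6 (-0.89 ± 0.19, adjusted p = 0.0226, limma), HEATR1 (-0.77), NOL6 (-0.70), UTP20 (-0.67), LTV1 (-0.65), TSR1 (-0.58) and NOP14 (-0.54). The other 5 were large subunit factors: GNL3L, GNL3 (-1.04 ± 0.24, adjusted p = 0.0279), RRP1B (-0.84 ± 0.15, adjusted p = 0.00875), MRTO4 (-0.75) and NOP53 (-0.65). HEATR1, the UTP-A scaffold, had 2885 and 3857 in DMSO, 2469 and 2721 after decitabine, 1753 and 2174 after RG3039 and 1505 and 1555 after both drugs. In 42 members both RG3039 libraries lay below both DMSO libraries (26.1% of all genes). The count was 1 without the second DMSO library or either RG3039 library, and 5 without either combination library. GNL3L again held in every fit.

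The combination was also lower than each single drug alone, for a larger share of the members than of all genes. Compared with decitabine, 23 of 60 were called lower (3.39% of all genes) and none higher, with a median log2 difference of -0.55. In 51 members both combination libraries lay below both decitabine libraries (27.3% of all genes). Those called were 9 small subunit, 9 large subunit, 3 polymerase I, 1 snoRNP and 1 other nucleolar gene. The smallest p belonged to NOP16 (-1.30 ± 0.16, adjusted p = 0.00249, limma), NOP14 (-0.88 ± 0.12, adjusted p = 0.0043) and NOL6 (-1.05 ± 0.17, adjusted p = 0.00848). Of the polymerase I genes, RRN3 (-1.27 ± 0.22, adjusted p = 0.0105), TCOF1 (-0.86 ± 0.17, adjusted p = 0.019) and POLR1A (-0.65 ± 0.17, adjusted p = 0.0479) were lower. URB2 (-1.64) and GNL3 (-1.15) had large differences as well. The others called were MRTO4, RRP15, NOP2, BRIX1, LAS1L, NIP7, LTV1, TSR1, DDX10, RRP9, NAT10, UTP14A, HEATR1, NOP58 and DDX21, between -0.54 and -1.0. The count was 5 or 6 without a decitabine library (the first and the second) and 2 or 4 without a combination library, and NOP14 and NOP16 held in every fit.

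Compared with RG3039, 15 members were called lower in the combination (0.787% of all genes) and none higher, with a median log2 difference of -0.68. They were 6 small subunit genes (NOP14, LTV1, TSR1, DDX10, RRP9 and NAT10), 5 large subunit genes (NOP16, MRTO4, RRP15, BRIX1 and LAS1L), TCOF1, GAR1, DDX21 and NOLC1. NOP16 had the smallest p (-1.37 ± 0.16, adjusted p = 0.00582, limma), followed by RRP15 (-1.03 ± 0.16, adjusted p = 0.0142) and TCOF1 (-1.03 ± 0.17, adjusted p = 0.0203). The combination libraries lay below both RG3039 libraries in 56 of 60 members (25% of all genes). In some members the values with the combination and with RG3039 were close: NOP53 had 5849 and 5711 after RG3039 and 5702 and 5705 after both drugs (-0.02 ± 0.14, adjusted p = 0.963), and UTP6 had 886 and 1062 against 1030 and 804 (-0.09 ± 0.19, adjusted p = 0.855). No call held in every fit with a library left out: the count was 0 without the first RG3039 or the first combination library, 3 and 1 without the second of each, and 9 and 6 without the first and second decitabine libraries.

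Between the 2 single drugs, 1 of 60 members was called lower with decitabine than with RG3039, and none was called higher. That share is close to the 1.92% of all genes called lower, so the count does not set the members apart. The median log2 difference was -0.06. Both decitabine libraries lay below both RG3039 libraries in 19 members (23.8% of all genes). The member called was UTP3, a processome protein also known as SAS10 (chr4:70688479-70690551, plus strand). It had 2045 and 2057 in DMSO, 1439 and 1251 after decitabine, 2411 and 2165 after RG3039, and 1589 and 1595 after both drugs. Its decitabine libraries were lowest and its RG3039 libraries highest, a log2 difference of -0.77 ± 0.15 (adjusted p = 0.0192, limma). The call was lost, with 0 members called, without any 1 of the 2 decitabine and 2 RG3039 libraries. It did not pass in either drug against DMSO (-0.61 and 0.16).

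The interaction is the log2 response to both drugs minus the log2 responses to each drug added up. Its median over the 60 members was -0.20, against -0.01 for all genes, and it was below 0 in 48 (50.9% of all genes). No member was called by limma, and 0% of all genes were. At an unadjusted p under 0.05 there were 4 of 60 members, a share close to the 5.78% of all genes. The count therefore does not set the members apart. They were NOP16 (-0.98 ± 0.23, unadjusted p = 0.00194, adjusted p = 0.709, limma), PES1 (-0.76, unadjusted p = 0.0223), TCOF1 (-0.63, unadjusted p = 0.0299) and GNL3L (0.98 ± 0.19, unadjusted p = 0.000588, adjusted p = 0.505). The values of NOP16, PES1 and TCOF1 lay below the sum of the single responses and that of GNL3L above it, none past the adjusted threshold.

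**Figure D4:**
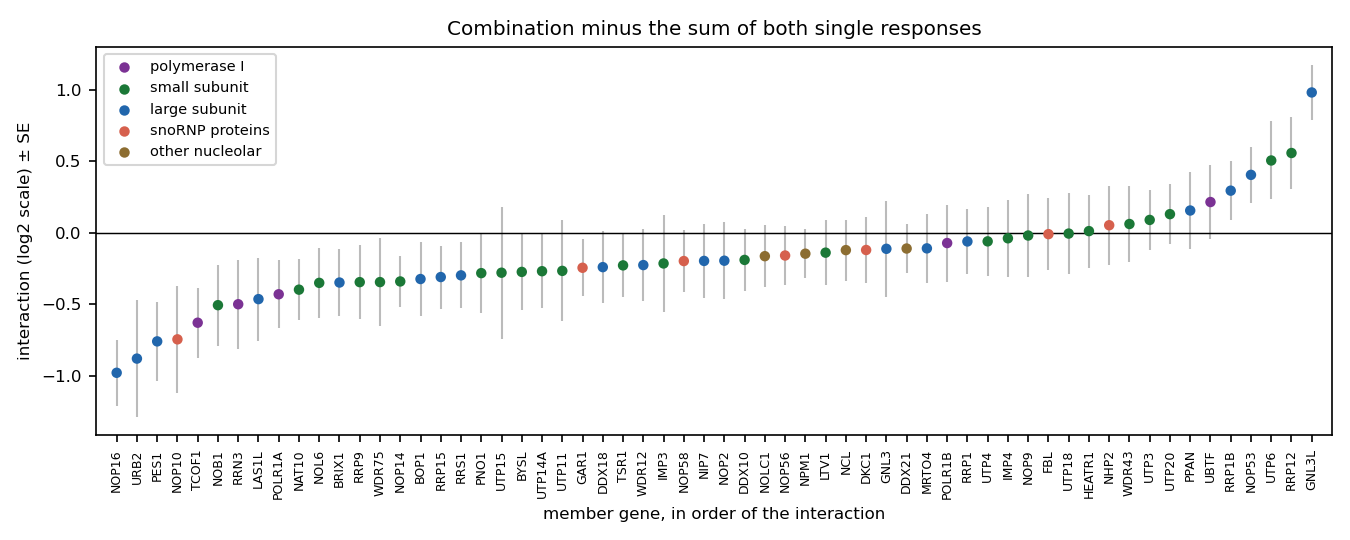
The interaction of each member, which is the log2 response to the combination minus the sum of the responses to the single drugs, with its standard error as a grey bar and colour for the role. From NOP16 at -0.98 to GNL3L at 0.98, 48 of 60 points lie below 0 (50.9% of all genes do), and none passed the adjusted threshold.

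As a share of all normalised reads, the 60 genes together made up 1.30% and 1.38% of the DMSO libraries, 1.05% and 1.10% after decitabine, 1.10% and 1.16% after RG3039, and 0.815% and 0.823% after both drugs. NPM1 and NCL supply many of these reads, and without them the shares were 0.821% and 0.876%, 0.654% and 0.707%, 0.661% and 0.709%, and 0.509% and 0.499%. The single drugs lay between DMSO and the combination in both sums, with no overlap. By role, the large subunit factors held 0.220% and 0.244% in DMSO and 0.114% and 0.110% after both drugs, and the small subunit factors 0.224% and 0.227% against 0.141% and 0.132%.

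**Figure D5:**
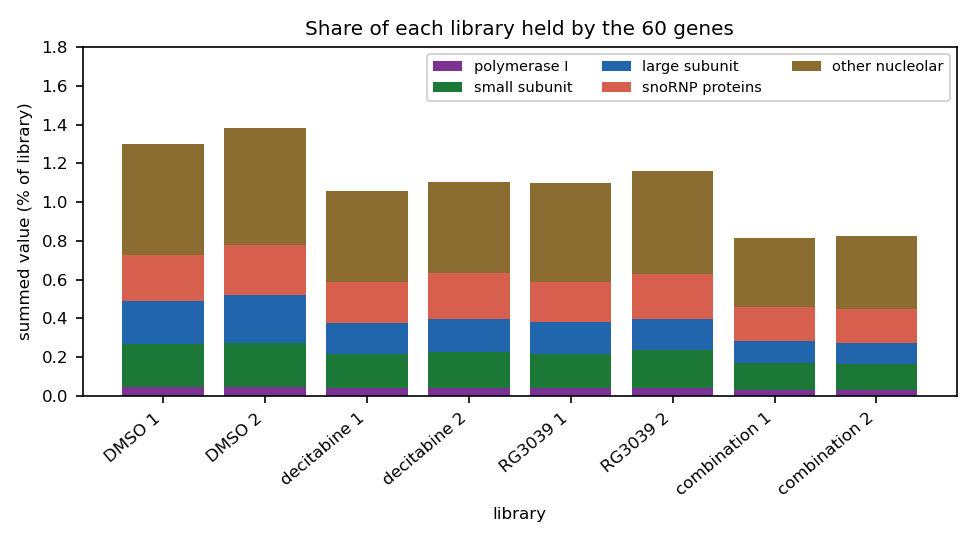
Stacked bars give the summed value of the 60 genes in each of the 8 libraries, as a percentage of the library's total, split by role. The bars fall from 1.30% and 1.38% in DMSO to 0.815% and 0.823% in the combination, and each role takes part.

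Other genes of the pathway, from a list of 103 (102 matched, 3 of them under an older symbol, and 101 tested), were also lower in most cases. In the combination 63 of 101 were called lower and 1 higher, with a median log2 fold change of -0.80. Of all genes, 12.7% were called lower there and 11.4% higher. With decitabine 5 (0.405% of all genes) and with RG3039 11 (3.59% of all genes) were called lower and none higher, with medians of -0.37 and -0.29. PDCD11, the processome protein RRP5, had 5957 and 5231 in DMSO, 3550 and 4032 after decitabine, 3693 and 2928 after RG3039, and 1418 and 1505 after both drugs (-1.93 ± 0.16, adjusted p = 8.54e-05, limma). CD3EAP, a polymerase I subunit, had 5239 and 6107 in DMSO, 2769 and 3389 after decitabine, 2895 and 3228 after RG3039, and 1534 and 1875 after both drugs. It was called lower with decitabine (-0.88 ± 0.17, adjusted p = 0.0323), RG3039 (-0.89 ± 0.17, adjusted p = 0.0131) and the combination (-1.74 ± 0.17, adjusted p = 0.000183).

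Of the large subunit genes of that list, RPF2 (-0.68), EBNA1BP2 (-0.70) and NPM3 (-0.87) were also called lower with decitabine, and had -1.40, -1.50 and -1.79 in the combination. With RG3039, PDCD11 (-0.76), NPM3 (-0.86) and the helicase DHX37 (-0.82) were among those called. The gene called higher in the combination was RIOK3, a kinase of the late small subunit precursor (0.51 ± 0.16, adjusted p = 0.0477, limma), which is named because it was the exception.

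MYC itself had 2716 and 2954 in DMSO, 1667 and 959 after decitabine, 1721 and 1062 after RG3039, and 628 and 500 after both drugs. It was lower in the combination (-2.34 ± 0.29, adjusted p = 0.000626, limma) and did not pass with decitabine (-1.16 ± 0.29, adjusted p = 0.0764) or RG3039 (-1.07 ± 0.29, adjusted p = 0.0565). Its part in the members' levels was not tested. DCPS, the gene of the enzyme that RG3039 inhibits, had 960 and 657 in DMSO, 1100 and 865 after decitabine, 966 and 660 after RG3039, and 543 and 416 after both drugs. Its combination libraries were the lowest, and it was called lower than with decitabine (-1.04 ± 0.27, adjusted p = 0.0477, limma). It did not pass with RG3039 (0.01, adjusted p = 0.992) or the combination (-0.74, adjusted p = 0.074) against DMSO.

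Within 9 of the 60 members (15%) lies a snoRNA gene on the same strand in GENCODE 29, against 1.59% of 12953 tested protein-coding genes. They are DKC1, GNL3, NCL, NOP53, NOP56, NOP58, PPAN, TSR1 and WDR43. In the combination 8 of these 9 were called lower with a median of -0.89, and 40 of the other 51 with a median of -1.05. Reads of a gene that overlaps a member cannot always be separated from it: 28 members have a gene on the opposite strand and 8 on the same strand (PPAN with its read-through transcript to P2RY11, and LTV1, for example), and whether reads were counted by strand was not given in the sources used here.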

How the data were processed

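The deposited table gives 60240 genes in 8 libraries a signal, which is a normalised read count, made with a 3′ tag kit (QuantSeq FWD), per the labels. The build hg38 and the tools limma, DESeq2, featureCounts, STAR and Salmon 1.2.1 are named in the submitters' processing notes, which do not say which of them made the values. Low values were whole multiples of 1 read's worth (tolerance 0.02) in 97.5% to 98.1% of cases where a gene has 1 transcript, but in 32.4% to 43.1% where it has 5 or more, so no count test was run; depths are totals divided by that step.

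Genes with a mean of at least 10 (17534) were tested on log2(value + 1) in R 4.3.3 by limma 3.58.1, with lmFit, contrasts.fit and trended eBayes. All 4 groups entered 1 fit with a common spread, with 4 residual and 5.51 prior degrees of freedom, and the members' median standard error was 0.178. Tests were two-sided, in 7 contrasts (each pair of groups and the interaction), with Benjamini-Hochberg adjustment over all genes within a contrast. Such fold changes slightly understate changes of low values. The script was tested on simulated data.

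Named with values are all members called in any contrast, the most abundant and best-supported of each role, well-known members of each complex, and, of the other pathway genes, the 4 with the smallest p per comparison with DMSO. The members, roles, other pathway genes, markers and motifs were chosen with earlier results of these data known. Coordinates come from GENCODE 29 (GRCh38), and promoter windows from RefSeq (GRCh38.p14). Alternatives were TMM and quantile scaling, another pseudocount, other filters, eBayes without the trend or robust, a replicate block, only the groups compared, and leaving out each library. Tables and plots were made with Python 3.11.15, pandas 2.3.3, numpy 2.4.6 and matplotlib 3.10.9.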

Additional observations from a re-analysis of the deposited data

How the results depend on the processing

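Of the members called lower, the count in the combination against DMSO was 37 to 51 over the settings tried (48 in the report), 37 without the eBayes trend. The smaller counts moved more. With decitabine it was 3 with quantile scaling, 3 when low values were not filtered, 1 without the trend and 1 with only the 2 groups compared. With RG3039 it was 6 with no filter, 1 without the trend and 1 with only the 2 groups. For the combination against decitabine it was 3 without the trend. Against RG3039 it was 7 with no filter, 1 without the trend and 23 with robust eBayes. Between the single drugs it was 0 without the trend and 0 with only the 2 groups. The causes were not tested.

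The labels give each group replicates 1 and 2 without saying that a number marks a shared plate or day. Correlations of same-numbered deviations were -0.0767 to 0.161 over 6 pairs of groups, above 0.1 in the 3 pairs among DMSO (0.117 with RG3039, 0.161 with the combination), RG3039 and the combination (0.103). Neither the labels nor these values settle whether the numbers pair the wells, and the report uses no block. With the replicate number as a block the counts were 8 with decitabine, 18 with RG3039, 51 in the combination, 31 for the combination against decitabine, 28 against RG3039, 1 between the single drugs and 0 for the interaction.

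With 1 library left out, the counts ranged from 1 to 7 with decitabine, 1 to 12 with RG3039, 38 to 47 in the combination, 2 to 28 for the combination against decitabine, 0 to 20 against RG3039, 0 to 1 between the single drugs and 0 to 0 for the interaction.

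Directions were followed for all 60 members in the combination against DMSO and, in the other comparisons, for the members called or named with a value there. Other members elsewhere were not followed. Among those followed, 5 values turned, none of them called: in the combination against DMSO, RRP12 (0.0011 with TMM, 0.10 with quantile scaling, and -0.13 to 0.093 with 1 library left out), UTP11 (0.012 with quantile scaling, and -0.48 to 0.24 with 1 library left out) and IMP3 (-0.31 to 0.39 with 1 library left out); against RG3039, NOP53 (0.063 with quantile scaling) and UTP6 (-0.27 to 0.086 with 1 library left out). With 2 libraries per group, the smallest log2 difference of a called member in any comparison was 0.54 in size, and some larger ones with a larger error did not pass.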
